A study of Mus musculus with 8 samples.

Results

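The chromatin at 10 genes that define cortical interneurons was examined in the cerebral cortex of BCAS and sham mice by ATAC-seq, in which the Tn5 transposase cuts and tags the DNA it can reach in nuclei. The genes were Gad1, Gad2, Pvalb, Sst, Vip, Lhx6, Dlx1, Dlx2, Npy and Reln, chosen by name as textbook interneuron genes. The rule uses no value measured in these libraries, but the choice was made with earlier results of these data known. The genes are 10 of 21911 protein-coding gene loci, a locus being the GENCODE gene on mm10 (GRCm38) extended by 3 kb at either end. BCAS, bilateral carotid artery stenosis, narrows both common carotid arteries with microcoils and lowers the blood flow to the forebrain. The 4 BCAS and 4 sham mice were male C57BL/6 animals of 14 weeks, killed 3 weeks after surgery, and those with BCAS carried a coil of 0.16 mm on the right and 0.18 mm on the left side. The sham mice underwent surgery without coils. The tissue was cortex, labelled as the right side, while the study's own quality table describes the cortex of the whole brain, so the side is not settled here. Each mouse gave 1 library and 1 peak list, with 119565 to 160720 peaks in BCAS and 107391 to 144988 peaks in sham libraries. A peak list holds no reads, so the depth behind a peak is unknown, and the quantity compared was the length of DNA under peaks.

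Cortical interneurons are the local inhibitory neurons of the cortex and use GABA, which the enzymes encoded by Gad1 and Gad2 make from glutamate. They arise in the ganglionic eminences of the embryo, where the homeobox genes Dlx1 and Dlx2 and, in the medial eminence, the LIM homeobox gene Lhx6 direct their specification and migration. In the adult cortex they are sorted into classes by the calcium-binding protein parvalbumin (Pvalb), the neuropeptides somatostatin (Sst), vasoactive intestinal peptide (Vip) and neuropeptide Y (Npy), and the secreted protein reelin (Reln). Interneurons are a minority of cortical cells. In bulk tissue, fewer cells of a type and less open chromatin per cell cannot be told apart.

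No interneuron gene passed the test between BCAS and sham mice after adjustment over all tested loci, by covered length or by peak rank. Except for Reln, Gad1 and Gad2, each had a shorter covered length than most protein-coding loci. Peaks were found in every library at 7 of the 10 genes, against 74.13% of all protein-coding loci. Sst had no peak in any library and Vip had a single peak in a single BCAS library. Together the 10 loci held 29 to 48 peaks and 10593 to 18019 bp under peaks in BCAS libraries, and 29 to 49 peaks and 10461 to 16981 bp in sham libraries. The ranges of both groups overlapped almost fully. In each group the lowest sum belonged to the library with the least DNA under peaks in the whole genome, and the highest sum to the one with the most. The library totals ran over 48.9 to 66.3 Mb in BCAS and 44.5 to 60.8 Mb in sham. Lengths were therefore scaled to the library total before groups were compared.

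The strongest elements of Gad1 and Reln lay in introns far from the gene start, while of the neuropeptide promoters that of Npy carried a peak in every library and those of Sst and Vip in none and in 1. The sequences below were chosen to show both. The first pair are the 201 bases around the summit of the highest-ranking region of Gad1, at chr2:70592500-70592700 on the plus strand, and of Reln, at chr5:22307179-22307379 and shown on the minus strand, both in introns and both found in all 8 libraries. In Gad1 the capitals mark GTTGCNANG, part of the X-box bound by RFX factors, a motif searched for only after this sequence had been read. In Reln they mark the 21 bases centred on the summit.
Gad1 region 7: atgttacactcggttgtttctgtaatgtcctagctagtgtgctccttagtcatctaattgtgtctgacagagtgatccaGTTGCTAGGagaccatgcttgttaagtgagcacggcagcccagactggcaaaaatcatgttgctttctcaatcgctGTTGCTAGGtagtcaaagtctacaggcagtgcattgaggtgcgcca
Reln region 6: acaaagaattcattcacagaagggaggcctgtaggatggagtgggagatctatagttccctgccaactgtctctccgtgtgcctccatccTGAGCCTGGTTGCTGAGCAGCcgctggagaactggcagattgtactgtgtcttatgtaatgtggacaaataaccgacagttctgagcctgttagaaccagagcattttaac
The next 3 are proximal promoters of neuropeptide genes. The Sst stretch, chr16:23890875-23890902 on the minus strand, holds in capitals the cAMP response element TGACGTCA. The Vip stretch, chr10:5639118-5639217 on the plus strand, holds its shorter core TGACGT and the TATA box TATAAA in capitals, and the Npy stretch, chr6:49822460-49822709 on the plus strand, holds GGGCGG, the GC box, in capitals.
Sst promoter: cctccttggcTGACGTCAgagagagagt
Vip promoter: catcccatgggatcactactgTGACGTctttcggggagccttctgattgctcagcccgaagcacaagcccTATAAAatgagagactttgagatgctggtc
Npy promoter: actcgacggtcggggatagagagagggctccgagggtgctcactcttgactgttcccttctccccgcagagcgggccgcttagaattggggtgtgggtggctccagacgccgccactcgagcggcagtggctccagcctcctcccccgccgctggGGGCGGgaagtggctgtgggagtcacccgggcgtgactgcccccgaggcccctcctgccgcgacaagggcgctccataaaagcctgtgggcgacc
All positions are on GRCm38, and the 3 promoter stretches are from the RefSeq promoter table on GRCm38.p6.

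Of the GABA-synthesizing enzymes, Gad1 encodes the larger form, which makes most of the brain's GABA. Gad1 (ENSMUSG00000070880, chr2:70553072-70602014, plus strand) had 1764, 1336, 1418 and 986 bp under peaks in BCAS 1 to 4 and 1127, 1517, 1860 and 1241 bp in sham 1 to 4. The groups overlapped, with BCAS 4 lowest and sham 3 highest. After scaling, Gad1 averaged 1328 ± 181.2 bp in BCAS and 1470 ± 117.6 bp in sham (SD, n = 4 each). The log2 difference was -0.13 (SE 0.12, 95% interval -0.40 to 0.13; adjusted p = 0.731 in limma over 17012 tested loci). Gad2 (ENSMUSG00000026787, chr2:22622205-22693874, plus strand), which encodes the smaller form found at nerve terminals, had 1726, 1568, 1121 and 491 bp in BCAS and 565, 1381, 1233 and 1098 bp in sham. The lowest library of each group, BCAS 4 and sham 1, held only the peak at the gene start. Scaled values were 1168 ± 460.5 bp in BCAS and 1093 ± 306.9 bp in sham, with a log2 difference of 0.04 (SE 0.24, interval -0.46 to 0.54; adjusted p = 0.972).

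Dlx1 (ENSMUSG00000041911, chr2:71528113-71533981, plus strand) and Dlx2 (ENSMUSG00000023391, chr2:71543408-71546754, minus strand) are neighbours transcribed toward each other, and their loci did not overlap. Dlx1 had 950, 456, 444 and 477 bp under peaks in BCAS and 257, 998, 629 and 316 bp in sham, so that the sham values enclosed all those of BCAS. Its scaled length was 550.1 ± 140.6 bp in BCAS and 546.4 ± 294.5 bp in sham (log2 difference 0.07, SE 0.24, interval -0.43 to 0.57; limma, adjusted p = 0.952). Dlx2 had 938, 510, 795 and 246 bp in BCAS and 338, 701, 383 and 480 bp in sham. The groups overlapped again, and BCAS held both the highest and the lowest library. Dlx2 averaged 590.4 ± 252.6 bp in BCAS mice and 494 ± 156.5 bp in sham mice (log2 difference 0.15, SE 0.24, interval -0.36 to 0.66; adjusted p = 0.882). Lhx6 (ENSMUSG00000026890, chr2:36081953-36105408, minus strand), which acts in the Pvalb and Sst lineages, had 905, 778, 221 and 423 bp in BCAS and 0, 852, 566 and 0 bp in sham. All 4 BCAS libraries thus had a peak, while sham 1 and sham 4 had none. These are the 2 sham libraries with the fewest peaks. Lhx6 had the largest log2 difference of the tested members and also the widest interval, 0.80 (SE 0.45, interval -0.14 to 1.74; adjusted p = 0.443), with 550.6 ± 258.1 bp in BCAS and 328.1 ± 401.8 bp in sham. Its size moved with the settings, to 0.46 with a covariate for the number of peaks and 1.27 with one for the GC content of the reads in 2 classes, 1.57 and 0.26 with pseudocounts of 50 and 1000 bp, 0.31 within 3 kb around the start, 0.45 without sham 1 or sham 4 and 1.24 without sham 2 (limma, adjusted p = 0.131 to 0.999).

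Among the class markers, Pvalb (ENSMUSG00000005716, chr15:78191114-78206400, minus strand), the marker of fast-spiking basket and chandelier cells, had 992, 647, 773 and 548 bp under peaks in BCAS and 400, 701, 764 and 340 bp in sham. The 2 groups overlapped through sham 2 and sham 3. Scaled lengths were 712 ± 103.3 bp in BCAS and 553.6 ± 136.8 bp in sham (log2 difference 0.29, SE 0.17, interval -0.08 to 0.65; limma, adjusted p = 0.496). Sst (ENSMUSG00000004366, chr16:23889573-23890958, minus strand) was at 0 bp in all 8 libraries over a locus of 7.39 kb. No peak in any library was also the state of 3843 of 21911 loci (17.54%), and since a list keeps only peaks above a threshold, accessibility below it was not detectable. Vip (ENSMUSG00000019772, chr10:5639218-5647617, plus strand) had 237 bp in BCAS 3 and 0 bp in every other library. That peak covered the gene start and ranked at 69.25% of its list, where 0% is the strongest peak by the deposited p-value. Both genes had too little covered length to be tested.

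Npy (ENSMUSG00000029819, chr6:49822710-49829507, plus strand), a neuropeptide of Sst and neurogliaform cells, had 631, 362, 658 and 510 bp in BCAS and 1116, 392, 415 and 454 bp in sham. Sham 1 stood above the rest and the other 7 libraries intermingled. Npy averaged 527.1 ± 130.3 bp in BCAS and 648.3 ± 452.4 bp in sham (log2 difference -0.11, SE 0.26, interval -0.67 to 0.45; limma, adjusted p = 0.928). Reln (ENSMUSG00000042453, chr5:21884454-22344702, minus strand), the largest of the 10 genes with a locus of 466.2 kb, had 10113, 9912, 7686 and 6912 bp in BCAS and 7077, 9333, 11131 and 6532 bp in sham. Its mean scaled length exceeded that of 97.11% of all coding loci. Reln was also the member with the narrowest interval. It averaged 8411 ± 1164 bp in BCAS and 8690 ± 827.7 bp in sham, with a log2 difference of -0.05 (SE 0.10, interval -0.25 to 0.15; adjusted p = 0.904).

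**Figure D1:**
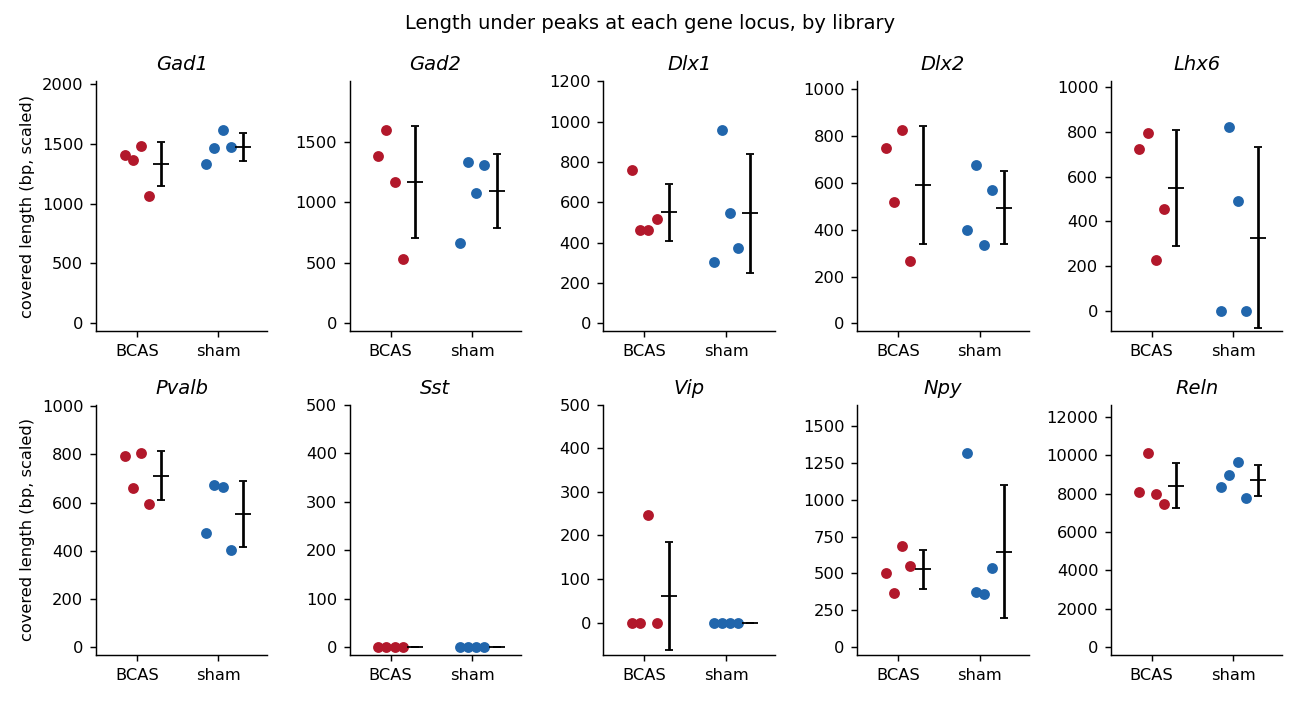
Covered length of each gene locus in bp, scaled to the library total. Points are libraries (BCAS red, sham blue), black ticks and bars are the mean and SD of 4 libraries, and the vertical scales differ between genes. No gene had all libraries of one group above all of the other, Sst was at 0 bp throughout and Vip was above 0 in BCAS 3 alone.

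Counted over the list, no member passed the test in either direction. Of the 8 members that reached a mean of 200 bp, 0 were called higher and 0 lower in BCAS (limma, adjusted p under 0.05), and 0 had an unadjusted p under 0.05. Over all 17012 tested loci, 3.15% were called higher, 0.376% were called lower and 2552 had an unadjusted p under 0.05. The groups did not overlap at 0 of the 8 members and at 8.51% of all tested loci. The median log2 difference of the 8 members was 0.0535, with 5 of 8 above 0, against 0.0014 over all tested loci. A difference that misses the threshold does not show that the groups were alike, and at Lhx6, Npy, Dlx2, Pvalb, Dlx1 and Gad2 the intervals still reached a size of 0.54 or more on the log2 scale. By the GC content of their reads, the libraries fell into a class with BCAS 1 and sham 1, 2 and 3 and a class with BCAS 2, 3 and 4 and sham 4, so that each class holds a single library of 1 of the groups. With the class as a covariate in limma 0 of the 8 members were called, and the log2 differences lay between -0.11 (Gad1) and 1.27 (Lhx6), with adjusted p = 0.302 to 0.96. Untested, within these classes the log2 differences of Gad2, Dlx2 and Reln had opposite signs (0.41 and -0.31 for Gad2, 0.54 and -0.13 for Dlx2, and -0.15 and 0.12 for Reln).

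**Figure D2:**
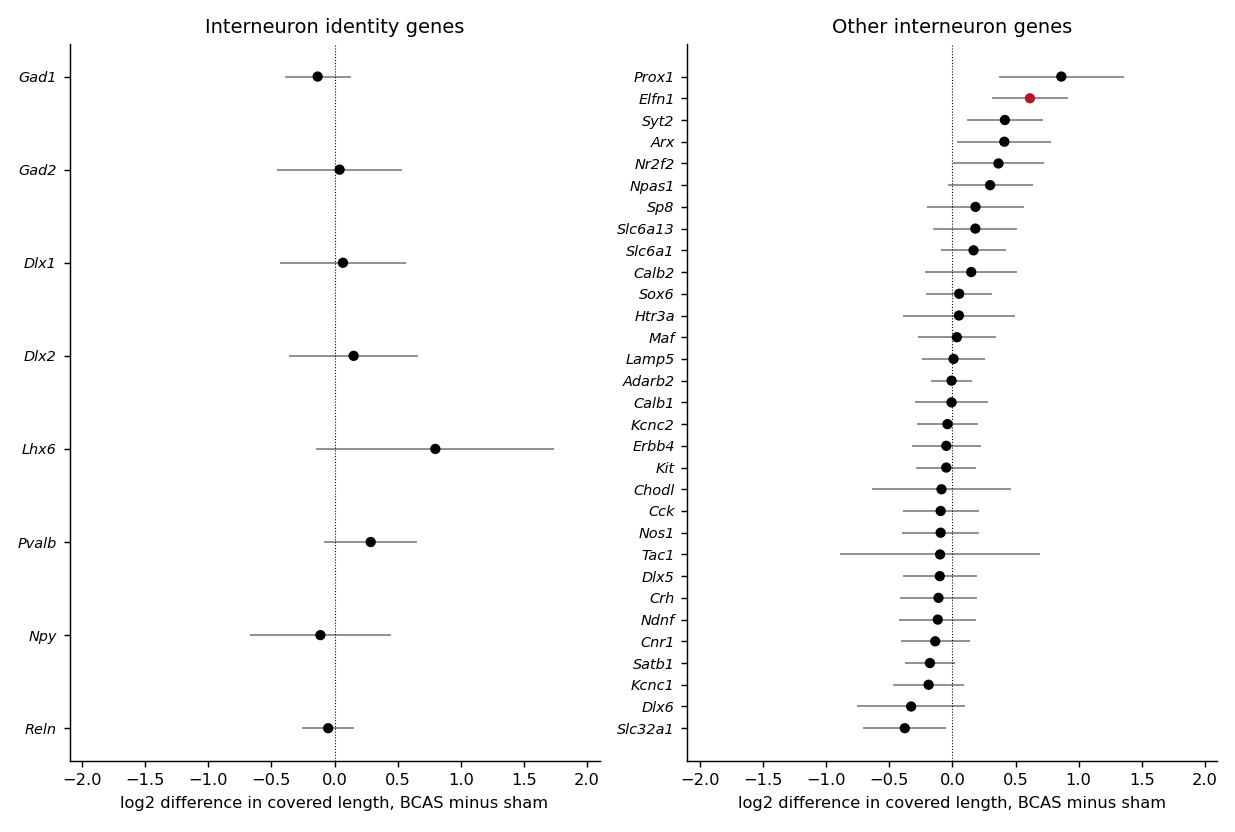
Log2 difference in covered length, BCAS minus sham, for the 8 tested interneuron identity genes (left) and 31 tested other interneuron genes (right), with 95% intervals from limma over 8 libraries. The interval of every identity gene includes 0, and Elfn1 (red) is the single gene with an adjusted p under 0.05.

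The rank of a peak in its list gave a second readout, which does not use covered length. The highest-ranking peak of Gad1 stood at 16.5, 14.03, 11.3 and 27.8% of the list in BCAS 1 to 4 and at 24.7, 24.7, 21.1 and 38.4% in sham 1 to 4. BCAS 1, 2 and 3 thus ranked it above every sham library, and BCAS 4 fell among the sham values. The peak of Dlx1 stood at 23.8, 27.9, 15.4 and 22.8% in BCAS and at 62.1, 31.4, 26.5 and 33.3% in sham, where only BCAS 2 and sham 3 were out of order. On the -log2 scale of the rank, where a positive value means a stronger peak in BCAS, the difference was 0.69 for Gad1 (SE 0.30; limma, adjusted p = 0.263) and 0.72 for Dlx1 (SE 0.29; limma, adjusted p = 0.231). Their 95% intervals, 0.08 to 1.30 for Gad1 and 0.12 to 1.32 for Dlx1, lay above 0. The median over all tested loci on this scale was itself 0.2005, and both differences include this general shift. Of the 7 members with a peak in every library, 0 were called, against 2.46% of 16243 loci, and 2 had an unadjusted p under 0.05, against 14.2% of the loci. Reln ranked highest of the members, at 5.74, 8.31, 11.6 and 11.9% in BCAS and 7.92, 9.25, 6.402 and 7.45% in sham. The best peaks of Gad2, Pvalb and Npy had medians of 59.53, 59.91 and 60.65%, and those of Dlx2 and Lhx6, where present, 81.5 and 90.27%. Over the 9 of the 10 genes with any peak the median was 59.91%, while it was 7.759% over all protein-coding loci and 23.87% over 12 markers of excitatory neurons.

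**Figure D3:**
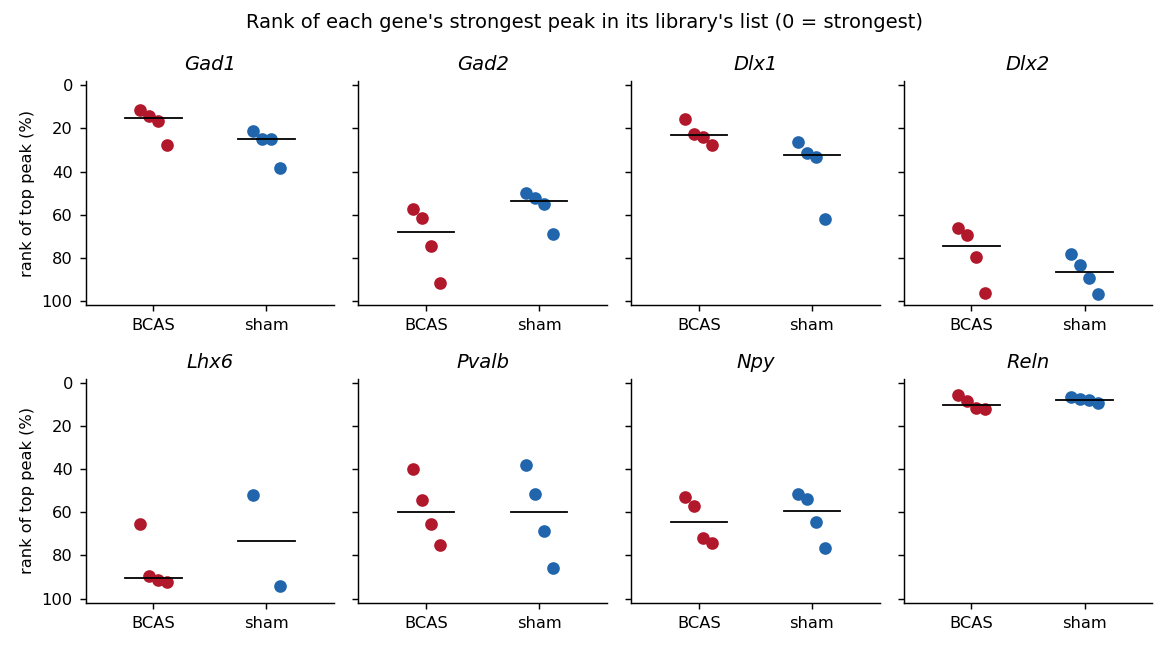
Rank of the strongest peak of each gene in its library's list, as a percentage with 0 as the strongest and the axis reversed. Points are libraries that had a peak (BCAS red, sham blue) and lines are medians. Reln, Gad1 and Dlx1 hold the strongest peaks, and the Gad1 and Dlx1 peaks of BCAS libraries lie mostly above those of sham libraries without passing the test over all loci.

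When the peaks of all libraries were merged where they overlapped by 1 bp or more, the 10 genes held 70 of 197916 regions. Reln had 41, Gad1 8, Lhx6 5, Gad2 and Pvalb 4 each, Dlx2 3, Dlx1 and Npy 2 each, Vip 1 and Sst 0. By the median position of their summits 54 lay in introns, 6 in a 5′ UTR, 4 upstream and 2 downstream of the gene, 2 in the gene body outside the basic transcripts, 1 in a 3′ UTR and 1 in a coding exon. A peak in all 8 libraries was found at 20 regions (28.57%, against 36.23% of all regions), and 18 regions had a peak in a single library (25.71%, against 18.18%). Of the 42 regions with enough covered length to be tested, 0 were called in either direction (limma, adjusted p under 0.05), against 3.08% of 131435 tested regions. An unadjusted p under 0.05 was found at 2 of the 42, against 12.4% of all tested regions. No region had a peak in every library of one group and in no library of the other, which was the case for 1.71% of all regions.

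The start of Reln was the element with the lowest p. This region (chr5:22344073-22345349) covered the gene start and was found in all 8 libraries, with 964, 573, 860 and 601 bp in BCAS and 449, 474, 477 and 391 bp in sham. Before scaling, every BCAS library had more DNA under peaks here than every sham library. The same held at the Gad1 region chr2:70558162-70558461, with 291, 299, 283 and 273 bp in BCAS and 200, 252, 213 and 200 bp in sham. The log2 difference of that Gad1 region was 0.18 (limma, adjusted p = 0.648). The share of all regions separated in this way was not determined. Among tested gene loci, which are longer, the groups did not overlap in scaled length at 8.51%. At the start of Reln the log2 difference was 0.46 (95% interval 0.21 to 0.72; limma, adjusted p = 0.077), and it was past the threshold without BCAS 2 (0.54, adjusted p = 0.0448). With only peaks of a -log10 q of at least 5 it was 0.42 (adjusted p = 0.306). The ranks of the peak overlapped between the groups, at 34.3, 64.0, 52.3 and 47.6% in BCAS and 55.6, 41.2, 34.7 and 45.4% in sham. The second was an intronic region 302651 bp from the start of Reln, named after its values were seen, with 278, 0, 0 and 249 bp in BCAS and 278, 347, 306 and 305 bp in sham (log2 difference -0.81; limma, adjusted p = 0.305). All 4 sham libraries had this peak and BCAS 2 and BCAS 3 lacked it.

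A further 3 regions had a peak in at least 3 libraries of one group and in none of the other, a state shared by 3.87% of all regions. One lay in an intron of Lhx6, 12590 bp from the start, with 250, 223, 221 and 0 bp in BCAS 1 to 4 and 0 bp in all sham libraries. The next lay 180231 bp into Reln, with 294, 205, 263 and 0 bp in BCAS and none in sham. The last lay 327970 bp into Reln, with no peak in BCAS and 220, 0, 221 and 200 bp in sham. These were narrow and weak peaks, ranked between 71.2 and 95.63% of their lists. Their sequences around the summit are given to show what the group-skewed elements hold, on the minus strand, at chr2:36091420-36091520 for Lhx6 and at chr5:22164359-22164559 and chr5:22016620-22016820 for Reln. Capitals mark GGGCGG in Lhx6 and the E-box CAGCTG in Reln.
Lhx6 region 4: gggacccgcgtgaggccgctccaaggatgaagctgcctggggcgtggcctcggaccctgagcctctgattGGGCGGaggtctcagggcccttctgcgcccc
Reln region 18: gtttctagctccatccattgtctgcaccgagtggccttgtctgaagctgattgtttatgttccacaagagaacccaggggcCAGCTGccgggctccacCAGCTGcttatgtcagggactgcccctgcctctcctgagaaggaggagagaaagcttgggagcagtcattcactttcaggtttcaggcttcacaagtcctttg
Reln region 26: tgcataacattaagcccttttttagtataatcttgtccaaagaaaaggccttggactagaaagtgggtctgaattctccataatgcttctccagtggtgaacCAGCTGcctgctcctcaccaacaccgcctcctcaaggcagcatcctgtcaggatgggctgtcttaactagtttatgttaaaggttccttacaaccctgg
The E-box was found in both Reln elements, once in the sham-skewed and 2 times in the BCAS-skewed one. It is a common motif. Among regions found in all 8 libraries, 18.5% held it in the 201 bases around the summit. The same was true of 4 of the 20 such regions of the interneuron genes. Whether group-skewed regions hold the E-box more often than other regions was not tested.

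**Figure D4:**
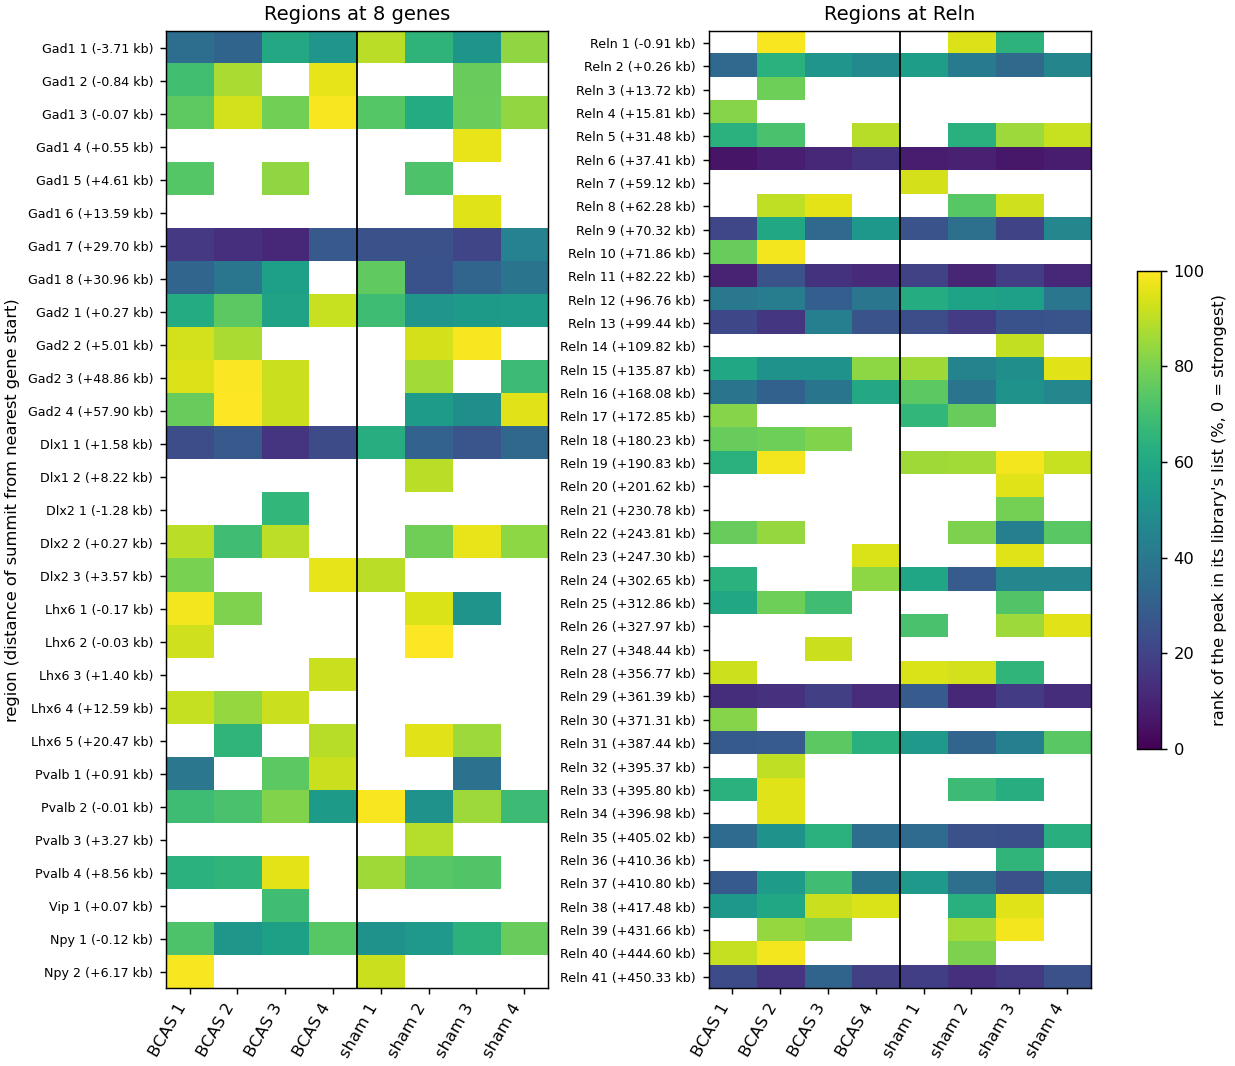
Presence and rank of every merged region at the interneuron identity genes (rows, with the distance of the summit from the nearest gene start in kb) in each library (columns, BCAS left of the line and sham right). Colour gives the rank of the peak in its list in percent, with dark as the strongest, and white means no peak. Dark rows run through all 8 libraries, and no row is filled in all libraries of one group and empty in the other.

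Reln carried most of the strong elements. Of its 41 regions, 13 were found in all 8 libraries. The strongest was the intronic region 37411 bp from the start, whose sequence is given above, with 505, 403, 466 and 360 bp in BCAS and 415, 368, 383 and 380 bp in sham. Its rank was 5.74, 8.31, 11.6 and 14.5% in BCAS and 7.92, 9.25, 6.402 and 7.45% in sham, so the groups overlapped. Other strong regions found in every library lay 82220, 361386 and 450328 bp from the start, with median ranks of 13.26, 13.75 and 18.78%. The start of the gene ranked far lower, at a median of 46.49%. Gad1 had the same arrangement. Its intronic region at 29701 bp had a median rank of 22.88%, with 356, 342, 368 and 297 bp in BCAS and 333, 337, 368 and 367 bp in sham, while the region at its start stood at 77.95%. At Dlx1 the only region in all 8 libraries had its summit in the 5′ UTR, 1585 bp from the GENCODE start, and stood at 27.18%.

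**Figure D5:**
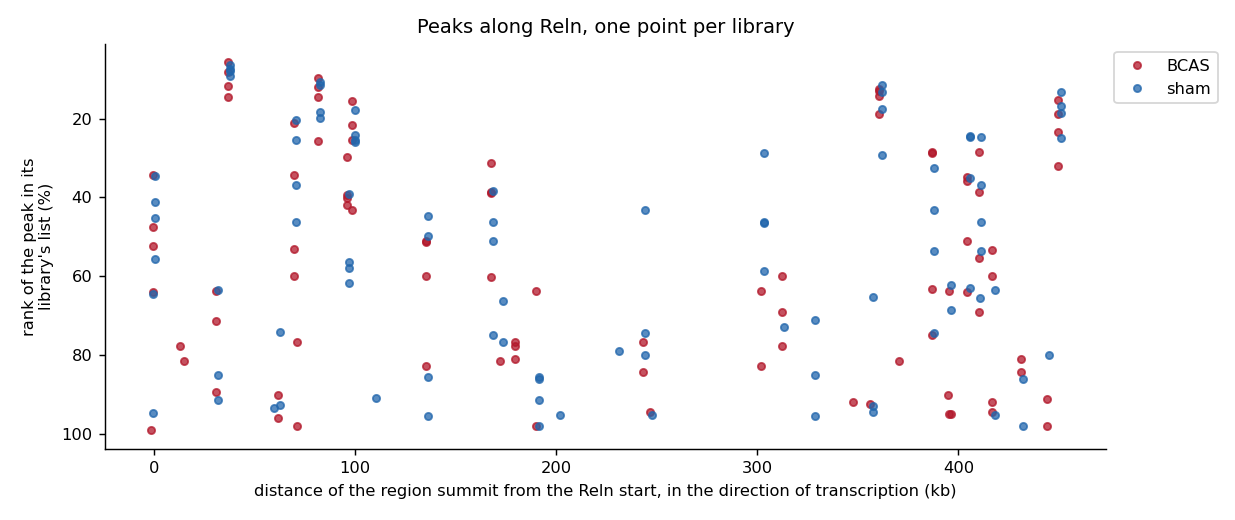
Peaks along Reln, with the distance of each region's summit from the gene start in kb on the x axis and the rank of the peak in its library's list in percent on the reversed y axis. Each point is the peak of 1 library (BCAS red, sham blue). The strongest region lies 37.4 kb from the start, and at regions found in all 8 libraries the points of both groups lie among each other.

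The RefSeq promoter windows, 250 bases before to 50 after the start, were matched for 10 of the 10 genes by symbol and gave 13 sequences. A peak touched a promoter in every library at Gad1, Gad2, Npy and the second promoter of Pvalb, 4 of 10 genes, against 59.1% of 16522 genes with such a window. The windows of Dlx1 and of Reln were each touched by a peak in 4 BCAS and 2 sham libraries, that of Dlx2 in 2 BCAS and 1 sham libraries, that of Lhx6 in 2 BCAS and 2 sham libraries, and that of Vip in 1 BCAS library. Sst, with none, was in the state of 32.8% of genes. The Sst and Vip windows held 50.33 and 41.67% GC, against a median of 57% over 20150 promoters, 62.33% over those with a peak in every library and 47.33% over those with none. The windows of Npy and Reln, with peaks, held 68.0 and 80.67% GC. Pvalb promoter 1 and Lhx6 promoter 3 had no peak in any library and held 58.33 and 48.67% GC. The relation of GC content to the presence of peaks was not tested.

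Motifs were searched on both strands and are descriptions, not binding sites. TGACGTCA began at position -48 of the Sst promoter, counted from the RefSeq start, and was found in 2.31% of all promoters. The shorter core TGACGT, which lies inside it, was found in 8.73% of promoters and began at -79 in Vip and -58 in Dlx2. TATAAA began at -30 in Vip and was in 12.1% of promoters, and GGGCGG began at -95 in Npy and was in 47.8%. Among the 201-base windows around the summits of 71712 regions found in all 8 libraries, GGGCGG was in 12928 windows, TGACGT in 4.21%, TATAAA in 8.42%, CAGCTG in 18.5%, the homeobox core TAATTA in 3.53% and GTTGCNANG in 4.51%. Of the 20 such windows of the interneuron genes, 2 held GGGCGG, 4 held CAGCTG and 2 held GTTGCNANG. The other motifs searched, including the TATA box and the homeobox core, were in 0 of the 20. The Gad1 window shown above held GTTGCNANG at 2 places, -21 and 55 bases from the summit, and 0.258% of all windows held it at 2 or more. Since this motif was searched for only after the Gad1 sequence had been read, its presence there was known beforehand. The share is therefore no measure of how unusual the Gad1 window is.

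The other interneuron genes, a list of 32 textbook genes of GABA transport, lineage factors, receptors and peptides, were more strongly covered than the 10. A peak in every library was found at 30 of the 32, and the median rank of the best peak was 21.8%. Of 31 tested, 1 was called higher and 0 lower in BCAS (limma, adjusted p under 0.05), beside 3.15% and 0.376% of all tested loci, and the median log2 difference was -0.007. An unadjusted p under 0.05 was found for 5 genes higher and 1 lower in BCAS, beside 1804 higher and 748 lower among all 17012 loci. The gene called was Elfn1, which encodes a synaptic protein of Sst cells that recruits a metabotropic glutamate receptor. Elfn1 had 2447, 1265, 1445 and 1448 bp under peaks in BCAS and 852, 1214, 924 and 726 bp in sham. Every BCAS library lay above every sham library, also after scaling. The groups did not overlap, in either direction, at 8.51% of all tested loci. Scaled, it averaged 1578 ± 275.9 bp in BCAS and 959.6 ± 163.1 bp in sham (log2 difference 0.61, SE 0.14; adjusted p = 0.0217), and the difference was 0.86 and 0.63 within the read GC classes. The call was lost without BCAS 1, 3 or 4 or sham 3 (log2 difference 0.52 to 0.63, adjusted p = 0.0511 to 0.0747), and it was also lost with 10 kb flanks (0.40, adjusted p = 0.11), without scaling (0.69, adjusted p = 0.155) and with the number of peaks as a covariate (0.58, adjusted p = 0.0687). The difference turned to -0.13 with peaks of a -log10 q of at least 5 and to -0.24 with lists of equal length. Slc32a1, the vesicular GABA transporter, had the lowest log2 difference of the list, -0.38 (SE 0.16; limma, adjusted p = 0.237), with 901.9 ± 55.17 bp in BCAS and 1261 ± 365.8 bp in sham. The highest was Prox1, a homeobox factor of interneurons from the caudal ganglionic eminence, at 0.86 (SE 0.23; limma, adjusted p = 0.0517), with 1342 ± 453.9 bp in BCAS and 645.5 ± 251.7 bp in sham. Both are named after their values were seen.

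Markers of other cell types were read in the same fit. Of 11 tested markers of excitatory neurons 0 were called higher and 0 lower, with a median log2 difference of -0.0779 and summed scaled lengths of 34.61 to 36.76 kb in BCAS and 34.05 to 38.62 kb in sham. Of 12 microglia markers 2 were called higher (Itgam 2.36 and Trem2 0.68 on the log2 scale; limma) and 0 lower, beside 3.15% and 0.376% of all tested loci. The sums of these markers were 28.76 to 31.96 kb in BCAS and 22.2 to 28.54 kb in sham. Each of the 12 had a peak in at least 1 library. Of 9 endothelial markers 0 were called by covered length, with sums of 17.32 to 20.46 kb in BCAS and 12.84 to 16.76 kb in sham. By the rank of the best peak, 3 of 10 microglia and 1 of 7 endothelial markers were called in either direction, against 2.46% of 16243 loci. By rank, 0 of 10 excitatory, 0 of 9 astrocyte and 0 of 9 oligodendrocyte markers were called. The sums of the microglia and endothelial markers did not overlap between the groups, by narrow margins. How often the sums of other gene lists separate was not determined. The log2 differences were above 0 at 12 of 12 microglia and 6 of 9 endothelial markers, and at 8569 of all 17012 tested loci. The medians of the microglia and endothelial markers were 0.29 and 0.11, while the largest single differences were 2.36 and 1.21. The part of these cell types in the values of the interneuron genes was not tested. The sums of the 10 interneuron genes, 11.44 to 15.88 kb in BCAS and 12.42 to 15.28 kb in sham, did overlap. Reln made up the larger part of this sum in every library. Without Reln, the summed lengths before scaling were 7906, 5657, 5667 and 3681 bp in BCAS and 3803, 6542, 5850 and 3929 bp in sham. None of 9 astrocyte and 9 oligodendrocyte markers was called, with median log2 differences of 0.0454 and -0.0218.

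Several loci hold other transcripts whose chromatin cannot be told apart from that of the member. The start of the antisense RNA Gad1os lies in the Gad1 locus, the miRNA gene Mir3967 in that of Gad2, and pseudogenes and antisense RNAs in that of Reln. Dlx1as and the end of Metap1d overlap the locus of Dlx1. The locus of Lhx6 overlaps the protein-coding gene Morn5 and holds the start of the RNA gene Gm27953.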

How the data were processed

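ATAC-seq was measured in the cortex of 4 BCAS and 4 sham mice, 1 library each. After trimming (Trim Galore), the authors used Bowtie2 2.3.4.3 for alignment to mm10, SAMtools 1.9 for the alignment files and MACS2 for calling peaks in single libraries. The MACS2 options were not given in the sources used. Deposited values are for each peak the authors' score, their fold enrichment as a ratio over the local background, and their -log10 p and -log10 q, all made within a library. The -log10 p served only to rank peaks within a list and the -log10 q as a threshold, and the score was not used. The authors' output of DiffBind was not used.

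Peaks on 21 chromosomes were laid over GENCODE vM21 basic gene bodies with 3 kb on each side (Python 3.11.15, numpy 2.4.6, pandas 2.3.3). Covered length was scaled to the library total, increased by 200 bp, log2 transformed and tested with limma 3.58.1 (R 4.3.3, trend of the variance) over 17012 protein-coding loci with a mean of at least 200 bp. Fold changes on this scale understate those of weakly covered loci. Merged regions with a mean of at least 100 bp and the -log2 rank share of the best peak were fitted likewise, with Benjamini-Hochberg adjustment over each whole table. The procedure was tested on simulated data. P-values measure the spread between 4 mice per group. The sample labels give no pairing of mice by replicate number. Deviations from the group means in same-numbered libraries correlated at -0.159, -0.0109, -0.0966 and 0.138. These values cannot show whether such mice were processed together.

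Named were the 10 genes, the other interneuron genes that passed the test, regions called or found in one group alone, and for each gene the region at its start and the strongest region in all 8 libraries. Members and lists were chosen with earlier results of these data known. Alternatives were a -log10 q of at least 5, lists of equal length, scaling to the number of peaks or none, a pseudocount of 50 or 1000 bp, no minimum, other flanks, ranking by fold enrichment, the number of peaks or the read GC class as covariates, the replicate block and leaving out each library. Plots were drawn with matplotlib 3.10.9.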

Additional observations from a re-analysis of the deposited data

Results flagged for a closer look

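In 32 groups of 4 libraries, the covered length and the rank of the best peak of each gene were searched for a library far from the other 3 of its group. Chance flags about 1 in 20 groups, and 2 were found. The first was the covered length of Vip in BCAS 3, 246.7 bp after scaling, where the other 3 BCAS libraries were at 0 bp. With 3 libraries at 0 bp any value in the last is flagged, so the chance rate does not apply to Vip. The second was the best peak of Lhx6 in BCAS 2, which ranked at 65.5% of its list while those of BCAS 1, 3 and 4 ranked between 89.33 and 92.07%.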

How the results depend on the processing

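No member was called higher or lower under any alternative, nor by the rank of its best peak, and the lowest adjusted p of a member was 0.131 (Lhx6, without sham 2). Of 100 values of the members' log2 differences under the settings other than leaving out a library, 89 kept their sign. The sign turned for Gad2 with lists of equal length (-0.91), a -log10 q of at least 5 (-0.80) and the number of peaks as a covariate (-0.07), for Dlx1 with 10 kb flanks (-0.04) and that covariate (-0.08), for Dlx2 with 10 kb flanks (-0.16), lists of equal length (-0.65) and a -log10 q of at least 5 (-0.06), for Npy with that covariate (0.04), and for Reln within 3 kb around the start (0.35) and without scaling (0.04). Leaving out 1 library at a time, Gad1 ranged from -0.18 to -0.05, Pvalb from 0.19 to 0.36, Lhx6 from 0.45 to 1.24, Dlx2 from 0.00 to 0.38, Gad2 from -0.14 to 0.32, Dlx1 from -0.10 to 0.30, Npy from -0.27 to 0.21 and Reln from -0.14 to 0.00.

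Of the other interneuron genes, 0 were called with 3 kb around the start, where Elfn1 had too little covered length to be tested, with lists of equal length, without scaling, with the number of peaks as a covariate or with a -log10 q of at least 5. Elfn1 was then at -0.24 with lists of equal length and -0.13 with the stricter threshold. With a pseudocount of 1000 bp 2 were called (Prox1 and Elfn1) and with the replicate block 3 (with Syt2), while leaving out a library gave 0 to 3 and Elfn1 between 0.52 and 0.70. The replicate block changed no call of a member, although it left 0 called regions among all those tested, against 4046 without it. With 10 kb flanks Prox1 was called in place of Elfn1, which was then at 0.40 (limma, adjusted p = 0.11). The member regions called numbered 0 to 1 over the libraries left out. The start of Reln was called without BCAS 2. The Reln region at 180231 bp counted as called without BCAS 4, but it reached the minimum length only through the BCAS libraries once the one at 0 bp was left out, and with all libraries and no minimum it was at 0.85 (adjusted p = 0.386), so this call carries no weight. Regions found in one group alone numbered 3 when at least 3 libraries sufficed, and 0 to 2 over the libraries left out, being 2 without BCAS 4 and 1 without sham 2. The causes of these changes were not tested. Gad1 within 3 kb around the start, Npy with no flank, and Lhx6 with lists of equal length and with the stricter threshold had too little covered length to give a value. The peak lists carry no reads, which limits all statements to presence, length and rank of peaks.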
